A study of Caenorhabditis elegans with 24 samples.

Results

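The response of ribosome footprints to heat was measured in noNSUN, a C. elegans strain that carries mutations in all 4 genes for RNA 5-methylcytosine methyltransferases of the NSUN family. A catalytic cysteine was changed to alanine by mj457 in nsun-4, mj458 in nsun-2 and mj473 in nsun-1, and the allele tm3898 deletes part of nsun-5. All noNSUN animals had all 4 alleles, so the 20 °C controls and the 27 °C group shared them. The comparison used 6 of the 24 libraries of the series, 3 replicates at 27 °C against 3 at 20 °C. They were chosen by their titles and their genotype and temperature labels. Whole adults were raised on plates at 20 °C on E. coli HB101, moved to liquid S-medium with HB101, and shaken for several hours at 20 °C or 27 °C before lysis in the presence of cycloheximide. The wild-type strain N2 was treated in the same way, and RNA-seq was made from the same lysates as the footprints. Values from those libraries are given beside the footprints where a result of noNSUN turns on them. The quadruple mutant is a single strain, and whole animals were lysed, so fewer cells of a type and less RNA per cell cannot be told apart.

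In ribosome profiling, RNA that is not covered by a ribosome is digested, and the protected fragments are sequenced. The number of ribosome-protected fragments (RPFs, here called footprints) on a coding sequence depends on how much of the mRNA is present and on how densely it is translated. Heat activates the transcription factor HSF-1, which binds arrays of a short repeated motif, the heat-shock element, upstream of chaperone genes. Chaperones of the HSP70, HSP90 and small heat-shock families bind unfolded proteins, and in worms the hsp-16 genes are nearly silent without stress. Most other translated mRNAs of an adult worm encode the translation machinery, muscle proteins, yolk proteins made in the intestine, and collagens of the cuticle made in the hypodermis.

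The hsp-16 genes were among those with the largest rises, and they lie in head-to-head pairs, so the region between them is shown first. The region between hsp-16.2 and hsp-16.41 is printed on the plus strand of WBcel235 (chrV:1804958-1805177, 220 bases), and the capitals mark TTCNNGAA, the core of the heat-shock element, which it held 2 times. The sequence came from the RefSeq FASTA, the gene ends from Ensembl.
hsp-16.2 to hsp-16.41: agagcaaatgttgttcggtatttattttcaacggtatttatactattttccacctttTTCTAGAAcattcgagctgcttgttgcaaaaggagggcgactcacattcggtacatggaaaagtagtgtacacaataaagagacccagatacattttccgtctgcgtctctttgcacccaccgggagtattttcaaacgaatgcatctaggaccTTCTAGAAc
A longer array, the core with a further TTC after 2 more bases or with a further GAA before 2 more bases, was searched with the core on both strands in the 300 bases upstream of each gene start, and every longer array contains the core. Further arrays upstream of genes with higher footprints are shown in capitals, with 6 bases on each side and on the plus strand, to show how alike they were.
hsp-16.1 and hsp-16.48 (chrV:9087866-9087878): acctttTTCTAGAACATTCgagctg
hsp-16.49 and hsp-16.11 (chrV:9090019-9090031): cagctcGAATGTTCTAGAAaaaggt
F44E5.4 and F44E5.5 (chrII:11759431-11759453): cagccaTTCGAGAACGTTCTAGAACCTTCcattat
ahsa-1 (chrV:15085561-15085578): attaatTTCGAGAAAATTCATGAAaaatgg
The array between hsp-16.1 and hsp-16.48 and the first array between hsp-16.2 and hsp-16.41 had the same letters, flanks included, and that between hsp-16.49 and hsp-16.11 was their reverse complement. Of the 17 genes with higher footprints at 27 °C, 10 held the longer array (58.8%), against 57 of 1621 tested genes (3.52%), 376 of all 19608 protein-coding genes (1.92%) and 0 of 38 genes with lower footprints. The 10 were the 6 hsp-16 genes, F44E5.4, F44E5.5, hsp-70 and ahsa-1. Both genes of each hsp-16 pair shared an array that was counted for each of them, and so did F44E5.4 and F44E5.5. The 10 genes are therefore not 10 separate upstream regions. The short core TTCNNGAA was present in 11 of the 17 (64.7%), 9 of the 38 (23.7%) and 19.5% of tested genes. These matches describe letters in a fixed window, and binding was not measured.

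The footprint libraries were small. The noNSUN totals were 96406, 57248 and 35173 in-frame footprints in replicates 1, 2 and 3 at 20 °C, and 162712, 396184 and 31776 at 27 °C, against 2093410 to 3412334 counts in the 6 noNSUN RNA libraries. Replicate 2 at 27 °C was the deepest library, and 3 counts were worth 10.2 CPM there but 129 CPM in replicate 3 at 27 °C. Footprints fell on 12661 of 20447 genes in at least 1 of these libraries, and 1624 genes passed the filter on low counts and were tested. A CPM is a count per 1000000 footprints on tested genes, after scaling between libraries by the TMM method. Within a temperature, the Spearman correlation of 2 libraries across tested genes ranged from 0.781 to 0.866. The 5 genes with most footprints in the 6 libraries were vit-6, vit-2, eef-1A.1, lea-1 and hsp-1, counts that are not divided by gene length. Markers fitted the labelled whole adults in that all 6 vitellogenin genes and 33 of 52 oocyte and eggshell genes passed the filter. None of 48 sperm genes did, and they took 0% to 0.00853% of a library. The counts of the mutated genes were low, with 3 to 54 footprints of nsun-1 and 2 to 61 of nsun-2 per noNSUN library, 0 to 3 of nsun-4 and 2 to 7 of nsun-5. nsun-5 RNA had 27 to 41 counts in noNSUN libraries and 41 to 72 in wild type. Point mutations leave counts in place, so these values bear only on the deletion. The nsun-5 RNA counts are not scaled to depth and their ranges met at 41, so they do not settle it.

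At 27 °C, 56 of the 1624 tested genes were called at an adjusted p under 0.05 (3.45%), of which 17 had more footprints (1.05%) and 39 fewer (2.4%). Chaperones and other heat-shock genes made up most of the rises, and cuticle collagens, yolk proteins, enzymes of propionate breakdown, subunits of the protein translocon and a few ribosomal proteins were among the falls. The median log2 fold change of all tested genes was 0.003, and 49.7% of them were below 0. Called genes included, the 27 °C libraries all lay above the 20 °C libraries for 167 genes (10.3%) and all below for 179 (11%). At an unadjusted p under 0.05 there were 268 genes. DESeq2 called 41 genes (2.52%), 16 higher (0.985%) and 25 lower (1.54%), all of them among the 56. Without replicates 1, 2 and 3 at 20 °C in turn, 26, 38 and 64 genes were called, and without replicates 1, 2 and 3 at 27 °C 30, 47 and 47. Of the 56, 9 higher and 12 lower genes were called in each of the 6 fits that left out 1 noNSUN library.

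**Figure D1:**
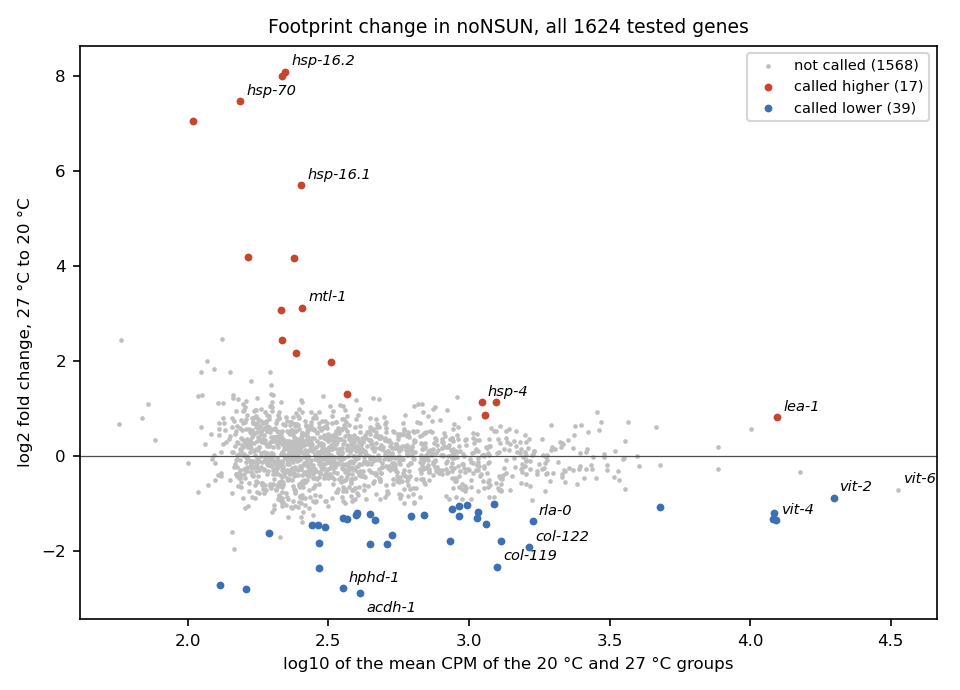
Each point is a gene, with the log10 of its mean CPM over the noNSUN groups on the x axis and the log2 fold change of footprints (27 °C to 20 °C) on the y axis. The 17 genes called higher are red and reach 8.09, the 39 called lower are blue and reach -2.89, and the 1568 others are grey. The 4 highest points had no footprint at 20 °C, so their fitted value is not a bound.

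All 6 hsp-16 genes rose. They encode small heat-shock proteins that bind unfolding proteins without using ATP. For hsp-16.2, the 20 °C libraries held 0, 0 and 0 footprints and the 27 °C libraries 65, 133 and 8, or 539, 451 and 344 CPM. Its neighbour hsp-16.41 likewise went from 0, 0 and 0 footprints to 65, 108 and 9, or 539, 366 and 387 CPM. The groups did not overlap for either gene, and the 20 °C libraries gave no footprint at all. Against a floor of 3 counts over the 20 °C group, footprints were at least 20.8-fold higher for hsp-16.2 (adjusted p = 4.23e-06) and at least 18.3-fold higher for hsp-16.41 (adjusted p = 5.84e-06). The remaining 4 genes are copies: hsp-16.1 and hsp-16.11 have the same coding sequence, and so do hsp-16.48 and hsp-16.49, so that no 28-base stretch of either sequence is unique and the split of counts between copies is uncertain. Summed over the copies, hsp-16.1 and hsp-16.11 had 75.4, 48.9 and 0 CPM in the 20 °C libraries against 1145, 586 and 946 CPM at 27 °C. The sum of hsp-16.48 and hsp-16.49 was 45.2, 48.9 and 0 CPM in the 20 °C libraries against 813, 596 and 903 CPM at 27 °C. Every 27 °C library was above every 20 °C library for both sums, and replicate 2 at 27 °C was the lowest of the 3 hot libraries. Fitted singly, the copies gave log2 fold changes of 5.69 ± 0.79 (SE) for hsp-16.1, 3.06 ± 0.56 for hsp-16.11, 4.17 ± 0.75 for hsp-16.48 and 4.17 ± 0.58 for hsp-16.49, with adjusted p between 2.03e-05 and 6.84e-04.

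As a group the hsp-16 genes took 0.00830%, 0.00699% and 0% of all footprints in the 20 °C libraries and 0.225%, 0.149% and 0.189% at 27 °C. In the RNA of the same lysates their share went from 0.000795%, 0.000703% and 0.000378% to 0.0591%, 0.0317% and 0.0320%. At 27 °C, however, hsp-16.11 had 0, 0 and 0 RNA counts but 62, 81 and 9 footprints. For hsp-16.48 these were 1, 0 and 0 against 45, 66 and 8. Only 4 of the 6 genes were tested in RNA. The RNA and footprint shares each sum all 6 genes, but with so few RNA counts on these copies the shares are not alike. In wild type the footprint shares were 0.00604%, 0.00781% and 0.00154% at 20 °C and 0.196%, 0.135% and 0.193% at 27 °C, a range that overlapped that of noNSUN at each temperature. For a share, 3 libraries against 3 cannot give an exact permutation p below 0.1 (two-sided), which was the value here, 0.188 after adjustment over 30 lists.

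Among the 5 cytosolic HSP70 genes, the 3 inducible genes rose and the 2 genes active in unstressed worms did not pass the test. HSP70 proteins refold clients in cycles of ATP hydrolysis. hsp-70 had 0, 0 and 0 footprints at 20 °C and 46, 70 and 7 at 27 °C (382, 237 and 301 CPM), at least 12.4-fold higher (adjusted p = 1.78e-04). F44E5.4 and F44E5.5, adjacent divergent genes 350 bases apart with the same coding sequence, together had 180.9, 73.3 and 197 CPM in the 20 °C libraries against 1162, 444 and 688 CPM at 27 °C. The hot libraries were all above the control libraries, and replicate 1 was the highest among them. F44E5.4 was called in 4 and F44E5.5 in 3 of the 6 fits without 1 noNSUN library, so that hsp-70 alone of the list was called without replicate 2 at 20 °C or without replicate 1 at 27 °C. The fitted log2 fold changes were 2.44 ± 0.55 for F44E5.4 (adjusted p = 0.00636) and 2.17 ± 0.52 for F44E5.5 (adjusted p = 0.0131). hsp-1, the constitutive HSP70, had 6829, 7892 and 9796 CPM in the 20 °C libraries against 13329, 10424 and 12089 CPM at 27 °C. These groups did not overlap, but the log2 fold change of 0.55 ± 0.20 had an adjusted p of 0.143. hsp-110, a nucleotide exchange factor of HSP70, was at 1085 ± 26.2 CPM (SD, n = 3) and 1297 ± 309.8 CPM, with overlapping groups (log2 0.19, adjusted p = 0.732).

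HSP90 itself did not pass the test, while its ATPase activator did. ahsa-1, the worm relative of the HSP90 activator Aha1, had 241, 171 and 197 CPM in the 20 °C libraries against 506, 495 and 602 CPM at 27 °C, and its log2 fold change was 1.31 ± 0.35 (adjusted p = 0.0286). Its groups did not overlap, yet the call was lost in each of the 6 fits that left out 1 noNSUN library and with DESeq2. hsp-90 had 6059.8, 8381 and 7278 CPM in the 20 °C libraries against 9777, 6677 and 8131 CPM at 27 °C, with overlapping groups and a log2 fold change of 0.18 ± 0.23 (adjusted p = 0.742). Of the 8 tested genes of the list of HSP90 and its co-chaperones, all 8 had a log2 fold change above 0, 1 was called, and the median was 0.65 against 0.003 for all tested genes. Values for those not called included 0.68 for sti-1 (adjusted p = 0.143), 0.66 for daf-41, 0.64 for fkb-6 and 0.91 for unc-45. sti-1 hands clients from HSP70 to HSP90, daf-41 is the p23 co-chaperone, fkb-6 is a prolyl isomerase and unc-45 is the myosin chaperone. In RNA, 2 of the 8 were called higher, or 7 in a fit blocked on replicate, against 1.04% and 4.1% of all 10815 genes called in either direction.

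Outside these lists, the J-domain protein dnj-19 had 437, 1002 and 1023 CPM in the 20 °C libraries against 2058, 1575 and 1419.7 CPM at 27 °C (log2 1.14 ± 0.29, adjusted p = 0.0219). J-domain proteins deliver clients to HSP70. The call of dnj-19 was lost without replicate 1 at 20 °C and without replicate 1 at 27 °C. It was the only gene called of 9 tested in its list, in which dnj-12 followed at 0.75 (adjusted p = 0.143). hsp-4, the BiP chaperone of the endoplasmic reticulum and a target of the unfolded protein response, had 603, 806 and 669 CPM in the 20 °C libraries against 1444, 1450.0 and 1678 CPM at 27 °C (log2 1.12 ± 0.26, adjusted p = 0.00754). The hot libraries of hsp-4 lay close together and all above the controls, and the call was lost without replicate 1 at 20 °C. It was called alone among 9 tested chaperones and folding enzymes of that compartment, with a list median of 0.32, and crt-1, calreticulin, was at 0.61 (adjusted p = 0.107). Its regulator xbp-1 went from 242 ± 138 CPM to 553 ± 221 CPM with overlapping groups (log2 1.18, adjusted p = 0.0936). No gene was called among the 8 subunits of the CCT chaperonin, 5 mitochondrial chaperones and proteases, 32 proteasome subunits or 2 other small heat-shock proteins.

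The other 5 rises were of genes outside the chaperone lists. mtl-1, a metallothionein, had 30.1, 48.9 and 78.7 CPM in the 20 °C libraries against 398, 329 and 645 CPM at 27 °C (log2 3.12 ± 0.57, adjusted p = 6.84e-04), and was the only gene called of 13 tested redox and metal-binding genes. anmt-3, annotated as similar to nicotinamide N-methyltransferase, had 0, 0 and 0 footprints at 20 °C and 36, 58 and 3 at 27 °C, at least 9.77-fold higher (adjusted p = 8.12e-04). Y94H6A.10, annotated with a Ulp1-type protease domain, had 121, 97.7 and 157 CPM in the 20 °C libraries against 639, 281 and 645 CPM at 27 °C (log2 1.97 ± 0.42, adjusted p = 0.00419). All 3 kept their groups apart. lea-1, related to plant proteins of desiccation tolerance, had 7311, 8405 and 11408 CPM in the 20 °C libraries against 16392, 14063 and 17079 CPM at 27 °C, a log2 fold change of 0.81 ± 0.22 (adjusted p = 0.0304). ccg-1, a protein with a conserved cysteine and glycine domain, had 739, 977 and 708 CPM in the 20 °C libraries against 1594, 1379 and 1463 CPM at 27 °C, a log2 fold change of 0.86 ± 0.24 (adjusted p = 0.0323). These were the smallest rises called, with all hot libraries above all control libraries, but lea-1 was called in 2 and ccg-1 in 0 of the 6 edgeR fits without 1 noNSUN library, and Y94H6A.10 in 4. The RNA of lea-1 and ccg-1 gave log2 fold changes of 0.13 and 0.02 (adjusted p = 0.914 and 0.991, and 0.559 and 0.938 with the replicate block).

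**Figure D2:**
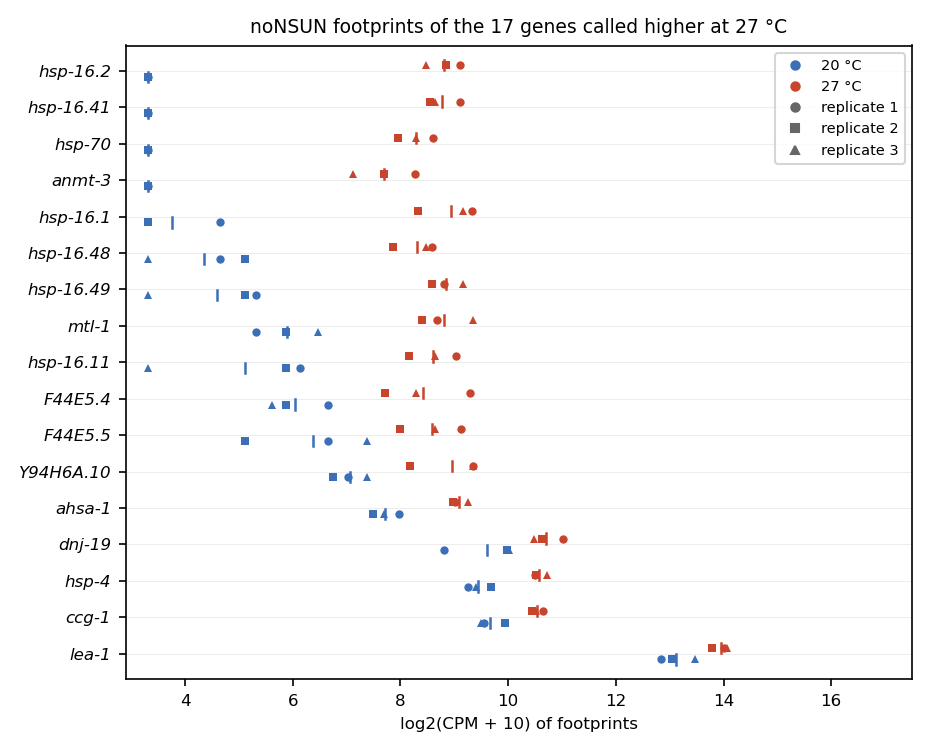
Footprints of the 17 genes called higher at 27 °C in the 3 noNSUN libraries at 20 °C (blue) and at 27 °C (red), as log2(CPM + 10), with the group mean as a vertical line. In each of the 17 genes the 3 red points lie to the right of the 3 blue points, and the top 4 genes sit at the value of 0 CPM at 20 °C.

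The 17 genes were then looked up in RNA and in wild type. RNA was tested for 15 of the 17 genes, not for the copies hsp-16.11 and hsp-16.48, which had almost no RNA counts. All 15 were above 0 there and 11 were called, or 13 with the replicate block. Of the 1599 genes tested in both assays, 21 and 72 were called higher in those fits, and of all 10815 genes tested in RNA 0.472% and 1.86%. In wild type, whose libraries are separate but entered the same filter, all 17 were above 0 and 12 were called. Of the 1624 tested genes, 810 were below 0 in wild type and 0.924% were called higher. Median log2 fold changes over the 17 were 3.06 in noNSUN footprints and 2.86 in wild-type footprints, and 2.44 in RNA over the 15. The smaller of the called genes illustrate the range. hsp-4 was at 1.15 ± 0.25 in wild type (adjusted p = 0.0108) and 0.74 ± 0.12 in RNA (adjusted p = 0.0066). ccg-1 was at 0.36 ± 0.24 in wild type (adjusted p = 0.668). hsp-70 was at 0 in the 20 °C libraries of wild type too and was at least 19-fold higher there at 27 °C. The filter asked for a level of 163 counts per 1000000 of all footprints in a library, without TMM scaling, unlike the CPM given here. Of the 17, 12 had no 20 °C library above that level, so among the noNSUN libraries they passed only through those at 27 °C, and their number is no support for a rise. Likewise, 10 of the 39 genes called lower had no 27 °C library above it. Among the noNSUN libraries these passed only through those at 20 °C, and their number is no support for a fall. At 27 °C, anmt-3 had 1 and F44E5.4 had 2 noNSUN libraries above the level, so both needed wild-type libraries to pass.

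Cuticle collagens formed the largest group of falls. Of 39 tested members of the list, 12 fell, none rose and 27 were not called, where 2.4% of all tested genes were called lower. The number was 5 without replicate 1 at 20 °C, 7 without replicate 1 at 27 °C, 10 to 13 without each of the other 4 libraries and 10 with DESeq2. Among the noNSUN libraries col-80, col-20 and col-143 passed the filter only through those at 20 °C, so their calls add no support to that number. Collagen genes encode proline- and glycine-rich proteins of the outer coat, secreted by the hypodermis. col-119 had 2593, 2370.0 and 1219.5 CPM in the 20 °C libraries against 207, 508 and 645 CPM at 27 °C, a log2 fold change of -2.34 ± 0.34 (adjusted p = 2.90e-05). col-122 had 2924, 2614 and 2164 CPM in the 20 °C libraries against 432, 827 and 860.4 CPM at 27 °C, a log2 fold change of -1.92 ± 0.28 (adjusted p = 2.70e-05). col-181 had 2532, 1979 and 1456 CPM in the 20 °C libraries against 498, 599.7 and 731 CPM at 27 °C (log2 -1.79 ± 0.30, adjusted p = 2.67e-04). In all 3 genes each hot library was below each control library, and replicate 1 was the lowest of the hot libraries. col-178 had 1191, 1735 and 1102 CPM in the 20 °C libraries against 232, 525 and 344 CPM at 27 °C (log2 -1.79 ± 0.30, adjusted p = 2.97e-04). col-140 had 1432, 1832 and 1809.6 CPM in the 20 °C libraries against 456, 786 and 559 CPM at 27 °C (log2 -1.43 ± 0.28, adjusted p = 0.00138). col-20 had 558, 464 and 433 CPM in the 20 °C libraries against 58.1, 112 and 129 CPM at 27 °C (log2 -2.36 ± 0.50, adjusted p = 0.00399). The largest fall of a collagen was that of col-80, with 19, 13 and 7 footprints at 20 °C and 4, 15 and 0 at 27 °C, or 286, 318 and 275 CPM against 33.2, 50.8 and 0 CPM (log2 -2.81 ± 0.62, adjusted p = 0.00557). The others called were col-95, col-143, col-184, col-101 and sqt-3, with log2 fold changes between -1.86 and -1.05 and groups that did not overlap.

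The collagen list did not move as a whole. Its members ranged from -2.81 to 2.46 on the log2 scale with a median of -0.72, and 29 of the 39 were below 0. The groups did not overlap for 19 of the 39 that were lower and 2 that were higher at 27 °C, where 11% and 10.3% of all tested genes were in those classes. The 2 collagens with most footprints, dpy-14 and dpy-17 (looked up after their values were seen), were at 0.09 and 0.12 (adjusted p = 0.909 and 0.872), and both values were below 0 when replicate 2 at 27 °C was left out. At the upper end dpy-5 had 6, 0 and 0 footprints at 20 °C and 65, 23 and 2 at 27 °C, mostly from replicate 1, and was not called (adjusted p = 0.223). Summed over the list, collagens took 2.19%, 2.06% and 1.79% of the footprints at 20 °C and 1.25%, 1.18% and 1.26% at 27 °C, groups that did not overlap (exact permutation p = 0.1, the smallest possible, 0.188 after adjustment over 30 lists). In RNA the shares were 1.06%, 0.886% and 0.900% at 20 °C and 0.811%, 0.657% and 0.752% at 27 °C.

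Coding sequences of the collagens that fell differ in composition from those of all tested genes, so composition was written beside the result. The 27 tested collagens that were not called were not compared, so whether these traits set apart those that fell was not tested. The 20-codon stretches with most proline codons are printed for 3 of the 12, read from the reference coding sequences, with the proline codon CCA in capitals.
col-119, codons 132 to 151: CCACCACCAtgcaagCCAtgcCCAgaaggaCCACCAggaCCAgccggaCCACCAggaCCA
col-122, codons 132 to 151: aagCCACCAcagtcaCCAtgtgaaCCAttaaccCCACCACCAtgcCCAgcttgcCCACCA
col-20, codons 145 to 164: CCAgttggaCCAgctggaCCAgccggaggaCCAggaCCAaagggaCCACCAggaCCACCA
Over the whole coding sequences of the 12 collagens, CCA made up a median of 16% of codons, against 2.86% over all tested genes. Glycine codons were at 21.3% against 6.61%, and the leucine codon UUG at 0.333% against 1.65%. Their median GC content was 57.4% against 47.5%. The 17 genes that rose had a median GC content of 41.5%, and the 27 falls that were not collagens 49.9%. The called genes of the 2 directions thus differed in composition, and the fit was repeated with an offset for GC content and length in each library. The median of the collagen list was then -0.25 instead of -0.72, with 10 members called lower and 1 higher, while 4.5% of all tested genes were called, 2.89% lower and 1.6% higher. The 10 were all among the 12, and the calls lost were those of sqt-3 and col-101 (adjusted p = 0.113 and 0.142).

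Yolk proteins fell. Vitellogenins are made in the intestine of the adult hermaphrodite and taken up by oocytes, and 5 of 6 vitellogenin genes were called lower, against 2.4% of all tested genes. vit-5 had 20501, 15613 and 14556 CPM in the 20 °C libraries against 4847, 9039 and 8174 CPM at 27 °C (log2 -1.21 ± 0.25, adjusted p = 0.00264). vit-1 had 7718, 6182 and 5468 CPM in the 20 °C libraries against 1992, 3876 and 3356 CPM at 27 °C (log2 -1.08 ± 0.26, adjusted p = 0.0106). vit-2 had 30164, 24457 and 22778 CPM in the 20 °C libraries against 9628, 17763 and 14541 CPM at 27 °C (log2 -0.89 ± 0.25, adjusted p = 0.0374). Replicate 1 at 27 °C was the lowest and replicate 2 the highest hot library for each, and no group overlapped. vit-3 and vit-4 are neighbours on chromosome X, 3389 bases apart, with 99% identical coding sequences, so they were summed as well, which gave 40384, 33327 and 31275 CPM in the 20 °C libraries against 10134, 18024 and 13164 CPM at 27 °C. Singly their log2 fold changes were -1.33 ± 0.26 and -1.36 ± 0.24 (adjusted p = 0.00133 and 6.54e-04). vit-6, which lies on another chromosome and encodes the precursor of the smaller yolk proteins, had 41002, 41438 and 42408 CPM in the 20 °C libraries against 17429.5, 33038 and 25683 CPM at 27 °C. Its groups did not overlap either, but its log2 fold change of -0.71 ± 0.25 did not pass the test (adjusted p = 0.116). Without replicate 1 at 20 °C or without replicate 1 at 27 °C, 3 of the 6 genes were called, and vit-3, vit-4 and vit-5 were called in all 6 fits without 1 noNSUN library. The call of vit-1 was lost in 2 of these fits. The call of vit-2 was lost with the GC and length offset (adjusted p = 0.0759) and in 4 of the 6 fits without 1 noNSUN library.

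The 6 genes took 9.62%, 8.65% and 8.42% of all footprints at 20 °C and 3.26%, 6.09% and 4.75% at 27 °C (exact permutation p = 0.1, adjusted 0.188). Because the shares of a library add up to 100%, a lower yolk share raises the share of the remaining genes, which TMM scaling is meant to offset. In wild type the shares were 5.56%, 9.99% and 7.94% and 4.08%, 6.51% and 5.90%, and no vitellogenin was called there. In RNA of noNSUN the shares were 8.09%, 8.72% and 8.98% and 5.54%, 6.86% and 7.35%, again without overlap. There 0 of the 6 were called in edgeR, or 4 with the replicate block. Of the 1599 genes tested in both assays, 29 and 105 were called lower in those fits. The median log2 fold change of the 6 was -1.14 in footprints, -0.57 in RNA and -0.72 in wild-type footprints.

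**Figure D3:**
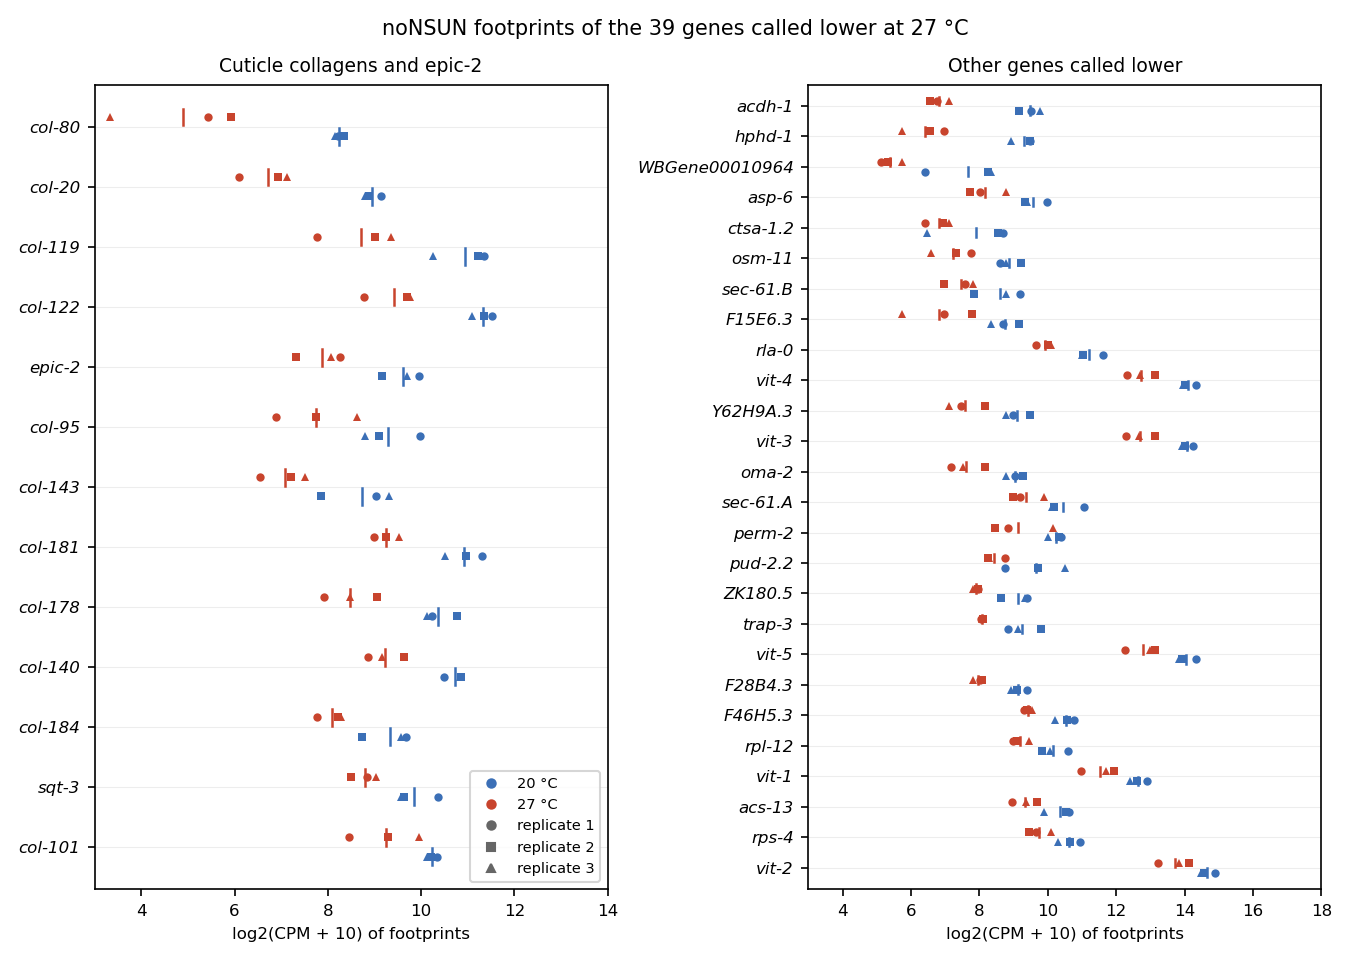
Footprints of the 39 genes called lower at 27 °C in the noNSUN libraries, as log2(CPM + 10), with 20 °C in blue, 27 °C in red and the group mean as a vertical line. The left panel holds the 12 collagens and epic-2, the right panel the other 26 genes, and the groups overlap in perm-2, pud-2.2 and ctsa-1.2 but not in the other 36 genes.

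The 2 largest falls outside collagens were of genes for propionate breakdown. acdh-1 and hphd-1 encode enzymes of the pathway that degrades propionate without vitamin B12. acdh-1 had 724, 562 and 865 CPM in the 20 °C libraries against 99.6, 84.7 and 129 CPM at 27 °C (log2 -2.89 ± 0.35, adjusted p = 4.23e-06). hphd-1 had 708, 709 and 472 CPM in the 20 °C libraries against 116, 84.7 and 43.02 CPM at 27 °C (log2 -2.80 ± 0.35, adjusted p = 4.23e-06). The controls were all several times above the hot libraries, and both calls held in every fit without 1 library. Among the noNSUN libraries both genes passed the filter only through those at 20 °C. Their RNA fell too, with 363, 416 and 383 CPM and 65.0, 60.3 and 49.1 CPM for acdh-1 (log2 -2.74 ± 0.22, adjusted p = 2.07e-05) and a log2 fold change of -2.04 ± 0.28 for hphd-1 (adjusted p = 0.0025). In wild type the footprints fell too, by 1.95 on the log2 scale for acdh-1 (adjusted p = 0.00329) and by 2.30 for hphd-1 (adjusted p = 6.95e-04). Of the other 9 tested genes of propionate and one-carbon metabolism none was called, and ech-6 and alh-8, whose enzymes act in the same pathway, were at -0.75 and -0.88 (adjusted p = 0.143 and 0.0936).

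Components of the protein translocon of the endoplasmic reticulum, through which secreted proteins pass while they are translated, fell as well. sec-61.A, the channel subunit, had 2125, 1148 and 1102 CPM in the 20 °C libraries against 573, 501 and 946 CPM at 27 °C (log2 -1.31 ± 0.29, adjusted p = 0.00505). sec-61.B, a small subunit, had 38, 9 and 11 footprints at 20 °C and 22, 34 and 5 at 27 °C, or 573, 219.9 and 433 CPM and 183, 115 and 215 CPM (log2 -1.47 ± 0.41, adjusted p = 0.037). trap-3, of the translocon-associated complex, had 452, 879.6 and 551 CPM in the 20 °C libraries against 257, 268 and 258 CPM at 27 °C (log2 -1.23 ± 0.32, adjusted p = 0.0224). None of the 3 had overlapping groups. sec-61.B and trap-3 are divergent neighbours on chromosome IV with 769 bases between them. trap-1, the other tested member of its complex, was at -0.31 (adjusted p = 0.598). These genes belonged to no list and were grouped after their values were seen. In the 6 fits without 1 noNSUN library sec-61.A was called in 4, sec-61.B in 2 and trap-3 in 2, and DESeq2 called only sec-61.A of the 3. With the GC and length offset the calls of sec-61.B and trap-3 were lost (adjusted p = 0.159 and 0.0559). RNA of the 3 gave log2 fold changes of -0.38, -0.34 and -0.26, none called, and sec-61.A was called with the replicate block (adjusted p = 0.00486).

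Cytosolic ribosomal proteins were mostly below 0, by small amounts. Of 74 tested genes 3 fell, none rose and 71 were not called, a number close to the 2.4% of all tested genes called lower. It was 2 with DESeq2, which did not call rps-4, and 1 without replicate 1 at 20 °C, replicate 1 at 27 °C or replicate 2 at 27 °C. Of the list, 60 of the 74 were below 0 (49.7% of all tested genes were), and the median was -0.37. rla-0, which anchors the stalk of the large subunit, had 3105, 2077 and 2046 CPM in the 20 °C libraries against 797, 1009.6 and 1076 CPM at 27 °C (log2 -1.37 ± 0.25, adjusted p = 6.78e-04). rpl-12, which binds beside it at the base of the stalk, had 1538, 904 and 1062 CPM in the 20 °C libraries against 498, 535 and 688 CPM at 27 °C (log2 -1.12 ± 0.28, adjusted p = 0.0149). rps-4 of the small subunit had 1975, 1588 and 1259 CPM in the 20 °C libraries against 805, 684 and 1076 CPM at 27 °C (log2 -1.02 ± 0.28, adjusted p = 0.0358). The groups did not overlap for these 3, nor for 11 further members that were lower at 27 °C (11% of all tested genes were lower without overlap). Among those not called, rps-3, the gene with most footprints, was at 0.30 (adjusted p = 0.491) and the highest, rps-25, at 0.71 (adjusted p = 0.129). As a share, the list took 7.56%, 6.38% and 7.17% at 20 °C and 6.04%, 6.00% and 6.62% at 27 °C, groups that overlapped. The RNA of the 74 genes had a median log2 fold change of 0.02, and wild-type footprints one of 0.07, with no gene called in either. The list median stayed below 0 under each other scaling, at -0.36 with RLE, -0.34 with upper quartile and -0.29 with the GC and length offset.

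The other falls came from several functions. In the lists of lysosomal proteases and of intestinal effectors 1 gene each fell, asp-6, an aspartic protease, and pud-2.2, a small protein first named in insulin-receptor mutants. asp-6 had 995, 635 and 669 CPM in the 20 °C libraries against 249, 203 and 430.2 CPM at 27 °C (log2 -1.66 ± 0.32, adjusted p = 0.00118). pud-2.2 had 422, 831 and 1456 CPM in the 20 °C libraries against 423, 298 and 301 CPM at 27 °C (log2 -1.26 ± 0.35, adjusted p = 0.0332), with overlapping groups, and was called in 2 of the 6 fits without 1 noNSUN library, against 5 for asp-6. No 28-base stretch of the pud-2.2 coding sequence is unique, so its footprints cannot be assigned to that gene alone. Of 33 oocyte and eggshell genes 2 fell, oma-2, which encodes a zinc finger protein of maturing oocytes, and perm-2, an eggshell protein, where 2.4% of all tested genes were called lower. Neither was called by DESeq2 or without replicate 1 at 20 °C, replicate 2 at 20 °C or replicate 1 at 27 °C. oma-2 had 513, 611 and 433 CPM in the 20 °C libraries against 133, 274 and 172 CPM at 27 °C (log2 -1.31 ± 0.33, adjusted p = 0.0197). perm-2 had 1342, 1271 and 1023 CPM in the 20 °C libraries against 448, 339 and 1119 CPM at 27 °C (log2 -1.27 ± 0.33, adjusted p = 0.0249), and its replicate 3 at 27 °C lay within the range of the controls. epic-2, an epicuticlin of the outermost cuticle layer, had 979.8, 562 and 826 CPM in the 20 °C libraries against 299, 149 and 258 CPM at 27 °C (log2 -1.87 ± 0.34, adjusted p = 6.74e-04), and its hot libraries were all below its controls. F46H5.3, a putative arginine kinase, had 1749, 1515 and 1180.2 CPM in the 20 °C libraries against 622, 661 and 731 CPM at 27 °C (log2 -1.19 ± 0.26, adjusted p = 0.00419). osm-11, a secreted Notch ligand, was at -1.49 ± 0.38, and acs-13, an acyl-CoA ligase, at -1.04 ± 0.28. The remaining called genes were F15E6.3, F28B4.3, Y62H9A.3, ZK180.5, ctsa-1.2 and the mitochondrial gene WBGene00010964, with log2 fold changes of -2.71 at the largest, for WBGene00010964, whose position in the mitochondrial genome lies over the RefSeq gene COX1. Of these 6 genes none was called in more than 2 of the 6 fits without 1 noNSUN library, and osm-11 and acs-13 were called in 2 each. Closest to the threshold inside it were ctsa-1.2 and WBGene00010964 (adjusted p = 0.0479), and closest outside were vha-12 (0.0503) and ZK813.1 (0.0527).

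Several lists held no called gene. None was called among 44 histones (median -0.27, with many near-identical copies), 31 sarcomere genes (0.11), 28 genes of oxidative phosphorylation (0.10), 26 of glycolysis and the TCA cycle (-0.13), 30 translation factors (-0.05), 19 aminoacyl-tRNA synthetases (0.23), 11 nucleolar ribosome biogenesis genes (0.14), 23 nuclear pore and transport genes (-0.03), 8 fatty acid desaturases and elongases (0.33), 8 neuropeptide and synapse genes (0.41), 7 ubiquitin genes (-0.27) and 6 stress regulators (0.26). eef-1A.1, the main elongation factor, was at -0.34 ± 0.20 (adjusted p = 0.413).

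**Figure D4:**
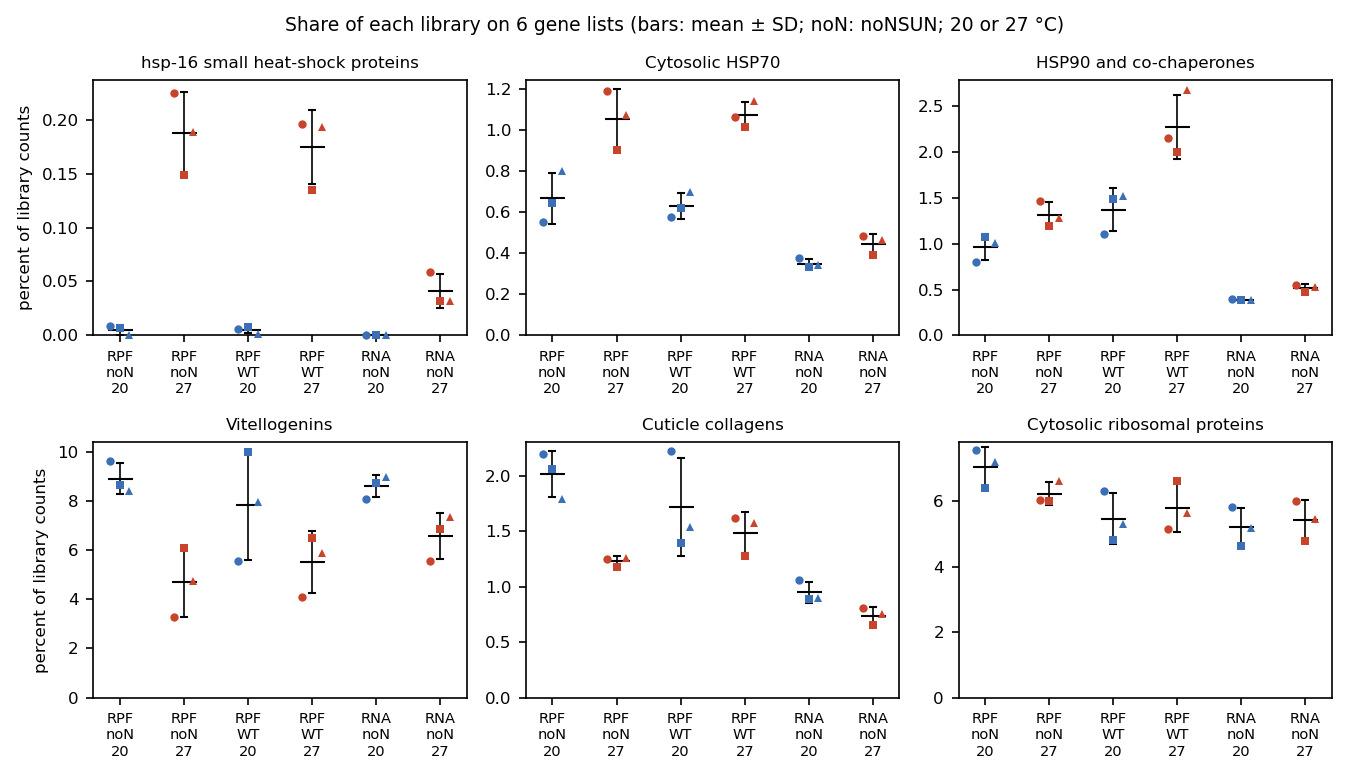
Percent of each library's counts on 6 gene lists, for footprints (RPF) of noNSUN and wild type and for RNA of noNSUN at 20 °C (blue) and 27 °C (red), with each of 3 libraries as a point and the mean ± SD as bars. In noNSUN footprints, hsp-16 genes go from at most 0.0083% to at least 0.149%, vitellogenins go from at least 8.42% to at most 6.09%, and collagens from at least 1.79% to at most 1.26%.

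RNA of the same lysates was compared next, for the genes with fewer footprints. Of 38 lower genes with RNA values, 34 were below 0 in RNA, where 862 of the 1599 genes tested in both assays were. Of the 38, 6 were called lower in RNA, or 23 with the replicate block. Of the 1599 genes, 29 and 105 were called lower in those fits, and of all 10815 genes tested in RNA 0.564% and 2.24%. The median log2 fold change of the called falls was -1.36 in footprints and -0.55 in RNA. Genes with the 2 values close together included acdh-1, hphd-1 and vit-1, at -1.08 in footprints and -1.03 in RNA, and col-80, at -2.81 and -2.56 (RNA adjusted p = 8.57e-05). Genes with RNA near 0 included rla-0 (-0.08), F46H5.3 (0.03), sqt-3 (0.10), rps-4 (-0.03) and perm-2 (-0.07). Across the genes tested in both assays, the 2 log2 fold changes had a Spearman correlation of 0.378 and a Pearson correlation of 0.701, a description over genes of the same lysates.

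Translation efficiency (TE), the ratio of footprints to RNA, was tested as the interaction of assay and temperature. It uses the same footprint counts, so a gene chosen for a low footprint value tends to a low TE. No gene was called among 1599 in edgeR without a block, with 188 at an unadjusted p under 0.05, and DESeq2 called 12, 11 lower and 1 higher. With a coefficient for each lysate, 19 were called (1.19%), 2 higher (0.125%) and 17 lower (1.06%). The smallest p without the block were those of W01D2.1, at -2.21 ± 0.47, rla-0, at -1.28 ± 0.28, Y61A9LA.10, at 1.56 ± 0.37, sqt-3, at -1.38 ± 0.34, and WBGene00018416, at 1.44 ± 0.36, with adjusted p between 0.101 and 0.129. With the lysate block the calls comprised 7 collagens lower and dpy-5 higher, the ribosomal proteins rla-0, rps-4 and rps-21 (-1.25, -0.96 and -1.11 on the log2 scale), vit-3 and vit-5 (-0.73 and -0.89), and single genes such as F46H5.3 (-1.17), asp-6 (-1.16) and perm-2 (-1.23). Among those collagens the values ran from -1.70 for col-20 to -0.95 for col-140. Only 13.8% and 33.5% of the 28-base stretches of vit-3 and vit-5 are unique, so their TE is less certain. The median TE change of all tested genes was 0.06, and 721 of 1599 were below 0.

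**Figure D5:**
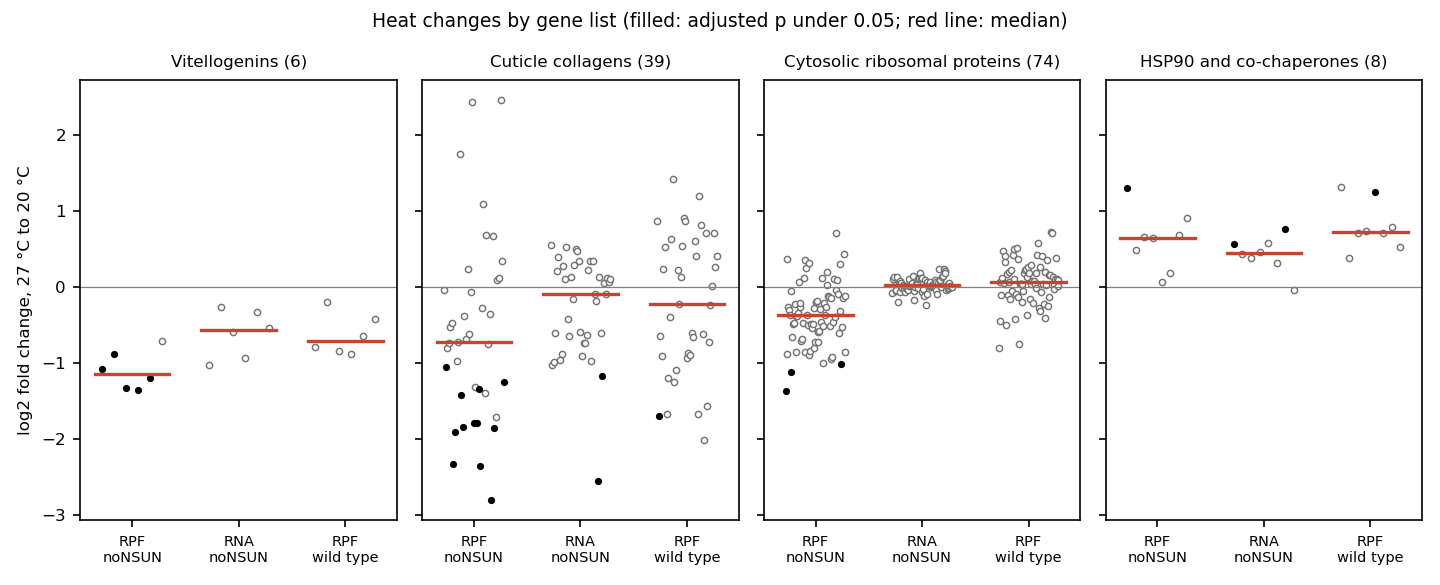
Log2 fold changes from 20 °C to 27 °C for the tested genes of 4 lists in noNSUN footprints, noNSUN RNA and wild-type footprints, with filled points for genes called in that comparison and the median as a red line. The median of the 74 ribosomal proteins is -0.37 in noNSUN footprints, 0.02 in RNA and 0.07 in wild type, and that of the 39 collagens is -0.72, -0.10 and -0.23.

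The heat response of noNSUN was then set beside that of wild type, whose libraries entered the fit of noNSUN only through the filter, the scaling and the shared dispersion. In wild type 21 of the 1624 genes were called (1.29%), 15 higher and 6 lower (0.369%). Of the 39 genes lower in noNSUN, 33 were below 0 in wild type, where 810 of the 1624 tested genes were. In wild type 3 of the 39 were called, acdh-1, hphd-1 and col-101. The value was closer to 0 in wild type for 37 of the 39, as values chosen for being extreme in 1 strain tend to be. The edgeR test of the difference itself called 0 genes. It gave 84 genes at an unadjusted p under 0.05, where 81.2 would be reached by chance, and DESeq2 called 0 with 48 such genes. The smallest p were those of rpl-12 (noNSUN minus wild type -1.53 ± 0.41), ZK180.5 (-1.65 ± 0.47), perm-2 (-1.80 ± 0.53), abu-14 (-2.08 ± 0.61) and sqt-3 (-1.66 ± 0.49), all with an adjusted p of 0.583. rpl-12 had 859.7, 552 and 461 CPM in wild type at 20 °C against 806, 1007 and 543 CPM at 27 °C, with overlapping groups. A difference between the strains was therefore not detectable at this depth for any single gene. Across the 1624 genes the log2 fold changes of the strains had a Spearman correlation of 0.314 and a Pearson correlation of 0.602, a description over genes.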

How the data were processed

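Whole adults were lysed, and footprint (Ribo-seq) and RNA libraries were made from the same lysates, with 3 replicates, described by the study as biological, in each group. The deposited footprint counts were made by the authors. The paper describes reads trimmed with Trimmomatic 0.39, cleared of rRNA and aligned uniquely to WBcel235 with HISAT2 2.1.0. The counts nevertheless include footprints on copies without a unique 28-base stretch, such as hsp-16.1 and hsp-16.11. How reads with more than 1 match were counted is thus unclear. Only in-frame counts on the longest coding sequence were kept, without its first codons. The deposited RNA counts came from HTSeq, whose version and strand setting are not given in the sources used here. The footprint table totals 31776 to 396184 counts in a noNSUN library, which limits its precision.

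All 12 footprint libraries, noNSUN and wild type, entered 1 edgeR 4.0.16 quasi-likelihood fit (R 4.3.3, TMM, filterByExpr with a minimum count of 10 and a minimum total of 15), with two-sided tests and Benjamini-Hochberg adjustment over all tested genes at 0.05. SE is the size of the log2 fold change over the root of F. RNA was fitted in the same way, and TE as the interaction of assay and temperature. In RNA, deviations from the group means went together in same-numbered libraries (r = 0.611, 0.369 and 0.326 in noNSUN), so a fit with that number as a block stands beside RNA results. Replicates 2 and 3 of noNSUN RNA also went together across numbers (r = 0.186 and 0.312). Footprints and RNA of a lysate are paired by design. The footprint fit was checked on simulated counts that had the same dispersion for all genes. It called 96 of 96 genes with a log2 change of 2 in either direction and 44 of 97 with a change of 1 (45.4%). Of 1282 unchanged genes it called 8 (0.624%). A gene that was not called may therefore still have changed. Alternatives were DESeq2 1.42.0, other scalings and filters, a GC and length offset, thinning, blocks and leaving out single libraries.

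Genes were named where they belonged to the heat-shock lists, had the largest called changes, were called or most abundant in a list, had the smallest p for TE or for the difference between strains, or had most footprints. dpy-5, dpy-14, dpy-17, xbp-1, rps-25, trap-1 and the genes of the translocon were added after their values were seen. The genes, lists and tests were chosen with earlier results of these data known.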

Additional observations from a re-analysis of the deposited data

How the results depend on the processing

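The count of 56 genes called in noNSUN footprints became 87 with the replicate number as a block (39 lower and 17 higher genes of the 56 among them), 121 with that block and a GC and length offset (40.5% of them higher, against 30.4% in the fit reported) and 15 when all footprint libraries were thinned to the smallest (11 lower and 2 higher of the 56 among them). Same-numbered footprint libraries of noNSUN did not deviate together (r = -0.0744, 0.0477 and -0.0255). With so few counts in these libraries, that cannot show whether the number pairs them. Leaving out each noNSUN library in turn gave 26 (without replicate 1 at 20 °C) to 64 genes. Without a filter 46 were called, 26 lower and 20 higher, and the median log2 change of all genes moved to 0.3. Other scalings and tests kept the count within 1.5 times. Wild-type footprints gave 21 genes, 32 with the block, 34 with the block and offset and 5 after thinning. RNA gave 112 genes, 239 from the libraries compared alone, 443 with the replicate block and 50 to 67 without single libraries. TE gave 0 genes in edgeR, 12 with DESeq2, 1 without a filter, 4 from the libraries compared alone and 19 with the lysate block. The log2 ratio of the HSP70 share moved from 0.662 to 0.997 without hsp-1, its most abundant gene. Of 1268 pairs of a named gene and an alternative, 1050 kept the direction and the side of the threshold, 188 lost a call, 25 gained it and 5 changed sign. The sign changes were of genes not called: hsp-110 (-0.03685) and dpy-17 (-0.006496) after thinning, dpy-14 without single libraries (-0.2057 to 0.3113) and dpy-17 likewise (-0.1065 to 0.2141). The cause of these shifts was not tested. With 3 counts worth up to 129 CPM in a noNSUN library, genes of low counts were not tested in footprints.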
